A study of Mus musculus with 13 samples.

Results

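The cytosolic ribosomal protein genes encode the protein part of the ribosome that translates nuclear mRNAs. They were collected by symbol, as every gene named Rpl or Rps with a number, together with Rpsa, Rplp0, Rplp1 and Rplp2. Symbols with the pseudogene suffix -ps and the Rps6k kinases were left out. Of 90 symbols that matched, 88 had at least 10 counts summed over the libraries, among 55536 genes in all. The 88 genes were 46 large subunit genes, 31 small subunit genes and 11 paralogs, which are named after another gene with a trailing letter or number (Rpl22l1, Rpl36al, Rpl39l, Rpl3l, Rpl6l, Rpl7l1, Rps12l1, Rps27l, Rps4l, Rps3a2 and Rps3a3). Among the paralogs, Rpl6l, Rps12l1, Rps3a2, Rps3a3 and Rps4l are annotated as processed pseudogenes (Rps4l as a transcribed one), although their symbols lack the suffix. The 77 subunit genes are called canonical here. Symbols alone decided which genes belonged, and no measured level entered beyond the minimum count. The set and its rule were themselves chosen with earlier results of these data known.

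RNA was sequenced from the frontal cortex of 5XFAD and wild-type mice at 2 ages, in 13 libraries. The groups were 5XFAD at 6 months (3 libraries), wild type at 6 months (4), 5XFAD at 11 months (3) and wild type at 11 months (3). The wild-type mice were B6SJLF1/J hybrids, and 5XFAD is the only strain entry for the transgenic mice. The 5XFAD line expresses mutated human APP, with other transgenic sequence, from mouse Thy1 regulatory sequence, which is active mainly in neurons, and it forms amyloid plaques in the brain. The titles give each library its own number without saying that each is a separate animal, so the p-values below measure the spread between libraries. At 6 months the numbers ran from 967 to 970 in 5XFAD and from 806 to 819 in wild type, so whatever they follow cannot be told apart from genotype at that age. At 11 months they fell into a lower series (180 and 183 in 5XFAD, 178 in wild type) and a higher one (795 in 5XFAD, 772 and 774 in wild type).

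Each ribosome holds about equal numbers of nearly all of its proteins, so their genes are among the most coordinated and most abundant mRNAs of a cell. Many of these mRNAs begin with a run of pyrimidines, the terminal oligopyrimidine or TOP motif, through which the kinase mTOR and the protein Larp1 control their translation. In neurons, ribosomal protein mRNAs are also found in dendrites and axons, and local synthesis there serves plasticity.

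Libraries held 23618296 to 26615776 counts, and markers of excitatory neurons were present in every one, at 3455 to 7416 CPM (TMM-scaled CPM, which set each count against the library's scaled total) summed over 6 genes. Sex, read from Xist and Y-linked genes, was uneven: 0 of 3 libraries were female in 5XFAD and 2 of 4 in wild type at 6 months, and 2 of 3 in 5XFAD and 1 of 3 in wild type at 11 months. Wild-type replicate 1 at 6 months held 2963 CPM of choroid plexus markers, while the other groups reached at most 33.2 CPM. The 12 microglial markers summed to 1166 to 1341 CPM in 5XFAD and 452.3 to 492.6 CPM in wild type at 6 months, and to 2098 to 2912 CPM in 5XFAD and 485.5 to 810.5 CPM in wild type at 11 months. Of these 12, 10 passed the threshold as higher at 6 months and 11 at 11 months. The 8 astrocyte markers summed to 3576 to 3949 CPM in 5XFAD and 2964 to 3061 CPM in wild type at 6 months (1 passed), and to 5373 to 6435 CPM in 5XFAD and 3396 to 5507 CPM in wild type at 11 months (3 passed). The part of either cell type in the ribosomal protein results was not tested. In such tissue RNA, a change in the number of cells of a type and a change in RNA per cell cannot be told apart.

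Levels of different genes were compared per length, as the TPM that the authors' quantifier scaled for transcript length. The highest mean over the 13 libraries belonged to Rplp1, an acidic protein of the large subunit stalk that recruits elongation factors, at 2996 TPM. Rps15 followed with 2155 TPM, Rps29 with 2150 TPM, Rps27 with 2004 TPM and Rpl13a with 1901 TPM. The ranges of Rps15 (1898 to 2391 TPM) and Rps29 (1816 to 2468 TPM) overlapped almost fully, so their order is not resolved. The lowest canonical gene was Rpl22 with 233.4 TPM, at rank 78, and the 77 canonical genes filled all ranks down to it but one.

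The paralogs, which include the annotated pseudogenes, spread far more widely than the canonical genes. Rpl36al, whose protein is nearly the same as that of Rpl36a, stood among the canonical genes with 322.9 TPM, against 545.0 TPM for Rpl36a. Rpl22l1, which in mouse cells is repressed by its paralog Rpl22, had 171.8 TPM, against 233.4 TPM for Rpl22. Lower still were Rps27l, a p53 target, with 48.1 TPM, Rps4l with 32.2 TPM and Rpl7l1 with 22.7 TPM. Rpl3l, known from striated muscle, had 0.412 TPM, and Rpl39l, known from male germ cells, had 0.206 TPM. Rpl39l and Rps3a3 (27 counts each in all) did not reach the expression filter, which left 86 genes for the tests, 77 of them canonical. Reads shared between near-identical copies were divided by the authors' quantifier: 44 of the 88 genes had non-whole counts in all 13 libraries and 20 in none.

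**Figure D1:**
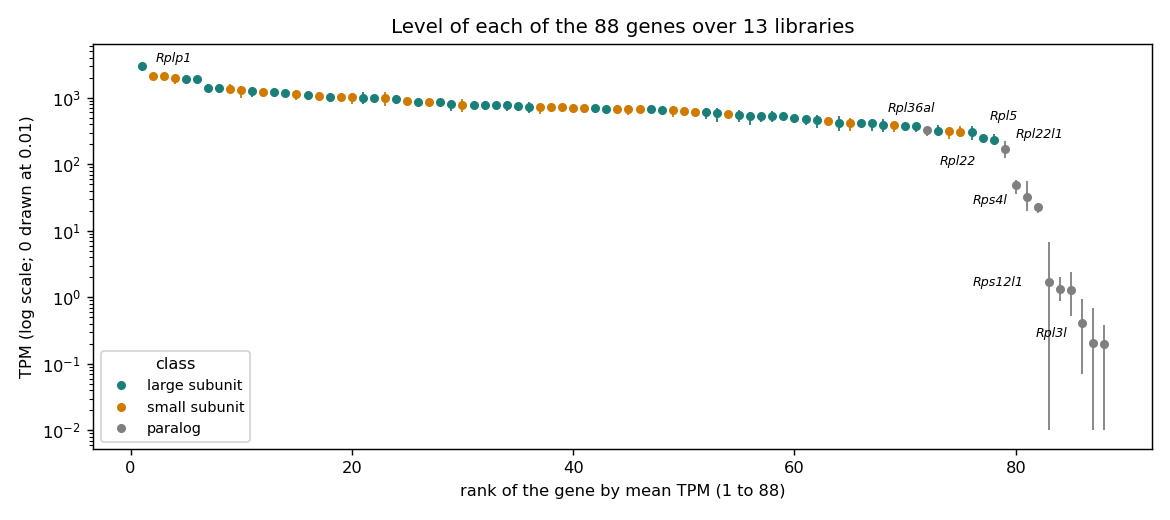
Mean TPM (log scale, points) and range over the 13 libraries (lines) of the 88 genes, ranked by mean. Canonical genes lie between Rplp1 at 2996 TPM and Rpl22 at 233.4 TPM, and all paralogs but Rpl36al lie below them.

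Sequence around the annotated transcription start was taken from RefSeq (GRCm38.p6), where 63 of the 88 genes, 57 of them canonical, had an entry. In a window of 30 bases, 10 before the start and 20 from it, 30 of the 57 canonical genes (52.6%) held a run of at least 7 C or T on the sense strand, against 2644 of 12429 other tested genes (21.3%). The same run on the opposite strand was held by 7.02% of the canonical genes and 22.4% of the others, the reverse order of the sense strand. Of the 31 genes past the threshold at either age in the comparisons below, 23 had a window and 14 held such a run. The windows below show some of these genes past the threshold, with Rps21 and Rpl22l1 added from the other end of the results. Only windows with a run of at least 7 were printed, so they cannot show whether a run goes with the genotype difference. The longest run of C or T is in capitals, and each window is the stretch in which a TOP motif would lie.
Rpl39 (chrX:37085203-37085232, minus strand): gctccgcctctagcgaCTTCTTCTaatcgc
Rpl12 (chr2:32961702-32961731, plus strand): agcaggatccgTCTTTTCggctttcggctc
Rpl35 (chr2:39005112-39005141, minus strand): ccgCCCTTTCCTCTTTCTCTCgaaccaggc
Rpl35a (chr16:33056472-33056501, plus strand): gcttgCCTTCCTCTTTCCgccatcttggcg
Rpl38 (chr11:114668570-114668599, plus strand): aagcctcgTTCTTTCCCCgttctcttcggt
Rpl7a (chr2:26910797-26910826, plus strand): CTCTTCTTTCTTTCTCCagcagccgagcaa
Rps12 (chr10:23787190-23787219, minus strand): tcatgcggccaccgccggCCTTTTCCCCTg
Rps6 (chr4:86857348-86857377, minus strand): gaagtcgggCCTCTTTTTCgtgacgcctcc
Rps21 (chr2:180257369-180257398, plus strand): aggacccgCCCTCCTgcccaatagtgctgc
Rpl22l1 (chr3:28805498-28805527, plus strand): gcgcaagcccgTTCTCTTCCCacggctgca
The longest run was 18 bases in Rpl35 and 17 in Rpl7a, and 7 in Rpl12 and Rps21. Rps21 and Rpl22l1 were among the genes with the smallest genotype differences at 11 months. In the whole 300 bases (250 before the start and 50 after), read on both strands, CCGGAAG stood in 42.1% of the canonical genes and 17.2% of the others. AAGATGGC stood in 8.77% and 4.58%, and TATAAA in 10.5% and 9.32%. None of these 3 motifs contains another, and a match is a description of letters, not of binding.

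Taken as one block, the ribosomal protein genes held a larger part of the RNA in 5XFAD cortex at both ages. At 6 months they took 2.425%, 2.348% and 2.437% of all counts in 5XFAD, against 2.196%, 1.898%, 2.219% and 2.087% in wild type. At 11 months they took 2.179%, 2.199% and 2.275% in 5XFAD, against 1.94%, 1.866% and 1.868% in wild type. The genotypes did not overlap at either age, and at 11 months 5XFAD lay above wild type within each series of title numbers (2.179% and 2.199% against 1.94%, and 2.275% against 1.866% and 1.868%). As a share of TPM, which is set per length, they took 6.868% to 7.111% in 5XFAD and 5.92% to 6.886% in wild type at 6 months, and the highest wild-type library lay just above the lowest 5XFAD library. At 11 months the TPM shares were 6.518% to 6.682% in 5XFAD and 5.777% to 6.384% in wild type, without overlap. Wild-type replicate 2 of 6 months stood lowest in its group on both scales.

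The same ordering was seen when each gene counted equally. The median over the genes of the log2 CPM deviation from the mean of all 13 libraries was 0.159 to 0.236 in 5XFAD and -0.175 to 0.029 in wild type at 6 months. At 11 months it was 0.028 to 0.13 in 5XFAD and -0.221 to -0.186 in wild type. The pooled within-group spread of this median was 0.061 (SD, log2 scale), and neither age showed overlap between genotypes.

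**Figure D2:**
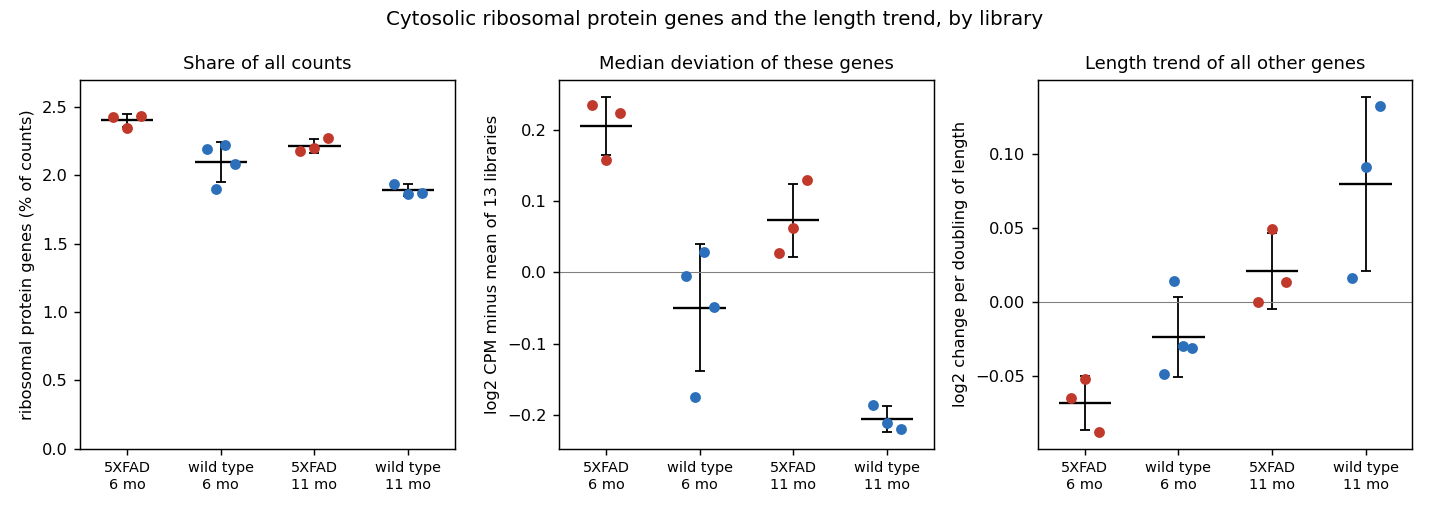
Points are single libraries and bars are the group mean ± SD. Panels show the share of counts (left) and the median log2 deviation of the ribosomal protein genes (middle). The right panel shows the slope of the log2 deviation on transcript length over all other genes. 5XFAD libraries lie above wild type of the same age in the left and middle panels, and the slope is lowest in 5XFAD at 6 months.

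At 6 months, ribosomal protein genes were shifted upward in 5XFAD by a small and similar amount, and 10 of the 86 tested passed the threshold, all higher. The test was edgeR's quasi-likelihood test with Benjamini-Hochberg adjustment over 17483 genes, and genes passed at an adjusted p below 0.05, as 1.3% of all genes did as higher and 0.0172% as lower. Of the 10, 8 belonged to the large subunit (of 46 tested) and 2 to the small subunit (of 31), and none to the 9 paralogs tested. The median log2 fold change was 0.25 over the 86 genes and -0.01 over all genes. All 77 canonical genes had a positive fold change, from 0.04 to 0.49, and 72 of the 86 had an unadjusted p under 0.05, as did 9.09% of all genes. For 69 of the 86 genes every 5XFAD library lay above every wild-type library, which held for 6.97% of all genes, and for none did every one lie below (5.07% of all genes).

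Rpl39, a small protein lining the tunnel through which the new chain leaves the ribosome, showed the largest difference at 6 months. It had 113.4, 99.6 and 109.1 CPM in 5XFAD, against 75.9, 69.0, 79.1 and 82.3 CPM in wild type. The groups were separated by a clear gap, and its log2 fold change was 0.49 ± 0.08 (SE; 1.40-fold), with an adjusted p of 0.00629 in edgeR. The gene (ENSMUSG00000079641) lies at chrX:37082520-37085402 on the minus strand of GRCm38, and its expected counts were whole in all 13 libraries. Rpl39 passed with each of the 13 libraries left out in turn, at log2 fold changes of 0.44 to 0.55 and adjusted p of 0.00604 to 0.0492. It passed in 8 of 9 other alternatives and missed the threshold on log2(TPM + 1) (adjusted p = 0.134).

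The other large subunit genes past the threshold at 6 months were close to one another in size. Rpl36a, which lies near the exit site for tRNA, had 136.3, 124.8 and 126.1 CPM in 5XFAD, against 107.0, 94.95, 104.4 and 97.4 CPM in wild type (log2 fold change 0.35 ± 0.07, edgeR adjusted p = 0.0211). Rpl12, at the base of the stalk, had 371.8, 360.3 and 365.2 CPM in 5XFAD, against 291.4, 262.4, 305.2 and 278.0 CPM in wild type (0.36 ± 0.08, edgeR adjusted p = 0.0422). Neither gene overlapped between genotypes, both had non-whole counts in all 13 libraries, and the 5XFAD libraries of Rpl12 differed among themselves by less than its wild-type libraries did. Rpl38, whose loss in mice alters translation of Hox mRNAs, averaged 174.4 ± 8.81 CPM in 5XFAD and 134.7 ± 9.3 CPM in wild type (SD, n = 3 and 4). Rpl35a, one of the genes mutated in human Diamond-Blackfan anaemia, had a log2 fold change of 0.36 ± 0.08 (edgeR adjusted p = 0.0401). Rpl23, Rpl30 and Rpl32 completed the group, with log2 fold changes of 0.36, 0.35 and 0.35.

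In the small subunit, Rps25 and Rps20 passed at 6 months, both in the head of the subunit. Rps25 had 296.4, 255.5 and 256.1 CPM in 5XFAD, against 217.0, 202.5, 214.6 and 203.4 CPM in wild type (0.36 ± 0.08, edgeR adjusted p = 0.0444). Rps20 averaged 200.9 ± 10.1 CPM in 5XFAD and 160.0 ± 9.43 CPM in wild type (0.33 ± 0.07, edgeR adjusted p = 0.0467). Both were free of overlap between genotypes. The least different canonical genes were Rpl4 and Rpl3, with log2 fold changes of 0.04 and 0.05, and Rpl3 had 614.3 ± 22.0 CPM in 5XFAD and 591.7 ± 29.6 CPM in wild type, with overlap.

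The number of genes past the threshold at 6 months depended on single libraries, and the median moved little. The count was 1 (Rpl39) without any single 5XFAD library of that age or without wild-type replicate 2 or 4, 2 (Rpl39 and Rpl36a) without wild-type replicate 1 (the library with choroid plexus RNA) or without any single 5XFAD library of 11 months, and 2 (Rpl39 and Rps25) with sex as a covariate. The share of all genes that passed in each of these fits is not given here. The median log2 fold change stayed between 0.21 and 0.28 in the fits that left out a library.

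**Figure D3:**
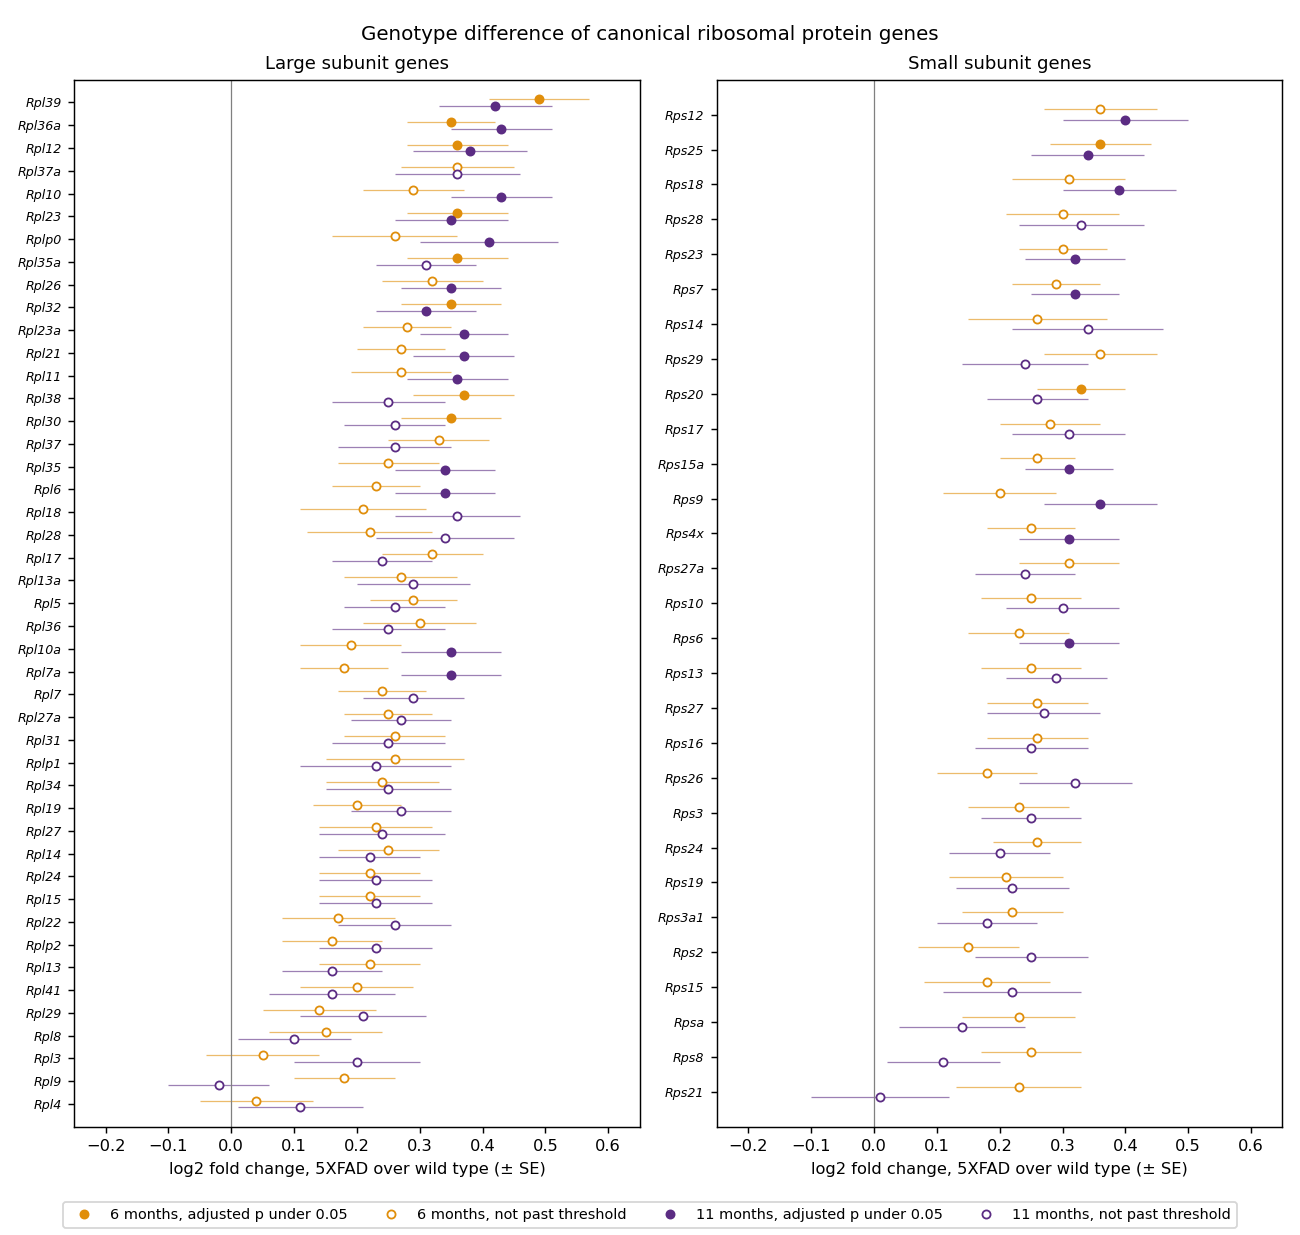
Log2 fold change of 5XFAD over wild type (± SE) for 74 of the 77 canonical genes at 6 and 11 months, with filled points past the threshold. All points but that of Rpl9 at 11 months lie to the right of 0.

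At 11 months the shift had a similar size, and 27 of the 86 genes passed the threshold as higher in 5XFAD and 0 as lower. Over all genes 3.8% passed as higher and 0.503% as lower. They were 16 large subunit genes (of 46), 11 small subunit genes (of 31) and none of the 9 paralogs. The median log2 fold change was 0.27 over the 86 genes and -0.03 over all genes, 84 of the 86 were positive, and 67 had an unadjusted p under 0.05, as did 15.8% of all genes. For 68 genes all 5XFAD libraries lay above all wild-type libraries, which held for 10.4% of all genes, and for none did all lie below (8.76% of all genes).

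Large subunit genes that did not pass at 6 months were among those past the threshold at 11 months. Rpl10, which sits close to the catalytic centre and joins the subunit late in its assembly, had 443.4, 433.7 and 491.0 CPM in 5XFAD, against 346.7, 327.7 and 343.9 CPM in wild type (0.43 ± 0.08, edgeR adjusted p = 0.00773). Rpl11, which with Rpl5 binds the ubiquitin ligase Mdm2 when ribosome assembly fails, averaged 311.8 ± 14.1 CPM in 5XFAD and 242.5 ± 9.58 CPM in wild type (0.36 ± 0.08, edgeR adjusted p = 0.0184; SD, n = 3 each). Neither Rpl10 nor Rpl11 overlapped between genotypes.

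Among the stalk genes at 11 months, 1 of 3 passed. Rplp0, which anchors the stalk, had 285.4, 332.4 and 342.9 CPM in 5XFAD, against 224.1, 279.3 and 220.8 CPM in wild type, with a narrow gap between the groups (0.41 ± 0.11, edgeR adjusted p = 0.0481). Its partners Rplp1 and Rplp2 had log2 fold changes of 0.23 ± 0.12 and 0.23 ± 0.09 and did not pass (adjusted p = 0.38 and 0.213), and the difference between these genes was not tested. Rpsa, also known as a laminin receptor, had 741.2 ± 55.6 CPM in 5XFAD and 673.7 ± 41.8 CPM in wild type, with overlap (adjusted p = 0.55). Rps6, the main ribosomal target of the S6 kinases, had 350.0, 376.6 and 359.9 CPM in 5XFAD, against 299.9, 281.2 and 296.4 CPM in wild type, and passed narrowly (0.31 ± 0.08, edgeR adjusted p = 0.0498). The mRNA level of Rps6 says nothing of the phosphorylation of its protein.

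The remaining small subunit genes past the threshold at 11 months included Rps4x, Rps7, Rps9, Rps12, Rps15a, Rps18, Rps23 and Rps25. Rps12 was at 312.2 ± 14.6 CPM in 5XFAD and 237.1 ± 12.9 CPM in wild type (0.40 ± 0.10, edgeR adjusted p = 0.0313). The remaining large subunit genes past it included Rpl6, Rpl7a, Rpl10a, Rpl12, Rpl21, Rpl23, Rpl23a, Rpl26, Rpl32, Rpl35, Rpl36a and Rpl39. Rpl21 had 489.8, 523.3 and 545.6 CPM in 5XFAD, against 390.6, 422.5 and 395.1 CPM in wild type (0.37 ± 0.08, edgeR adjusted p = 0.0119), without overlap.

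At the other end, Rpl9 and Rps21 did not differ by genotype at 11 months beyond their spread. Rpl9 had 289.4, 321.0 and 325.9 CPM in 5XFAD, against 289.7, 335.1 and 324.2 CPM in wild type (-0.02 ± 0.08). Rps21 had 155.7, 170.8 and 151.8 CPM in 5XFAD, against 153.6, 172.2 and 150.5 CPM in wild type (0.01 ± 0.11). Both sets of libraries covered the same range, although at 6 months these genes had log2 fold changes of 0.18 and 0.23 that did not pass either.

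The count at 11 months also rested on single libraries. It was 1 without 5XFAD replicate 3, which left Rpl36a alone (adjusted p = 0.0311), 14 without 5XFAD replicate 1 or 2, 10 without wild-type replicate 3 and 17 without wild-type replicate 1. The median log2 fold change stayed between 0.25 and 0.30 when any single library was left out. The count was 1 with only the libraries of that age in the model, 2 on log2(TPM + 1) and 2 with the length and GC offsets described below, which brought the median to 0.15. With the series of title numbers as a term, 22 passed and the median was 0.28. Among the fits in this paragraph, the share of all genes that passed is given only for the offsets, below.

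Across both ages, 31 genes passed at either age and 6 at both: Rpl12, Rpl23, Rpl32, Rpl36a, Rpl39 and Rps25. Of all genes, 1.3% passed as higher at 6 months and 3.8% at 11 months, and their share at both ages was not taken. With each of the 13 libraries left out, Rpl32 and Rps25 passed in 3 fits at each age. At 6 and 11 months Rpl23 passed in 3 and 7 of these fits, Rpl12 in 4 and 10, Rpl36a in 8 and 13 and Rpl39 in 13 and 11. For 61 genes the genotypes did not overlap at either age, against 4.0% of all genes. At 11 months Rpl39 had 95.0, 84.2 and 96.7 CPM in 5XFAD, against 73.1, 66.6 and 66.3 CPM in wild type, and Rpl36a had 112.4, 114.5 and 123.4 CPM in 5XFAD, against 87.5, 88.4 and 84.4 CPM in wild type. No change of the genotype difference with age was detected by edgeR. There 0 of the 86 genes passed for the genotype by age interaction, where 0.00572% of all genes passed as higher. Of the 86, 0 had an unadjusted p under 0.05 (3.96% of all genes). DESeq2 called 0 as well. The median interaction was 0.02 on the log2 scale. Rpl10, which passed at 11 months and not at 6 months, is thus not shown to differ more at that age than at 6 months.

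**Figure D4:**
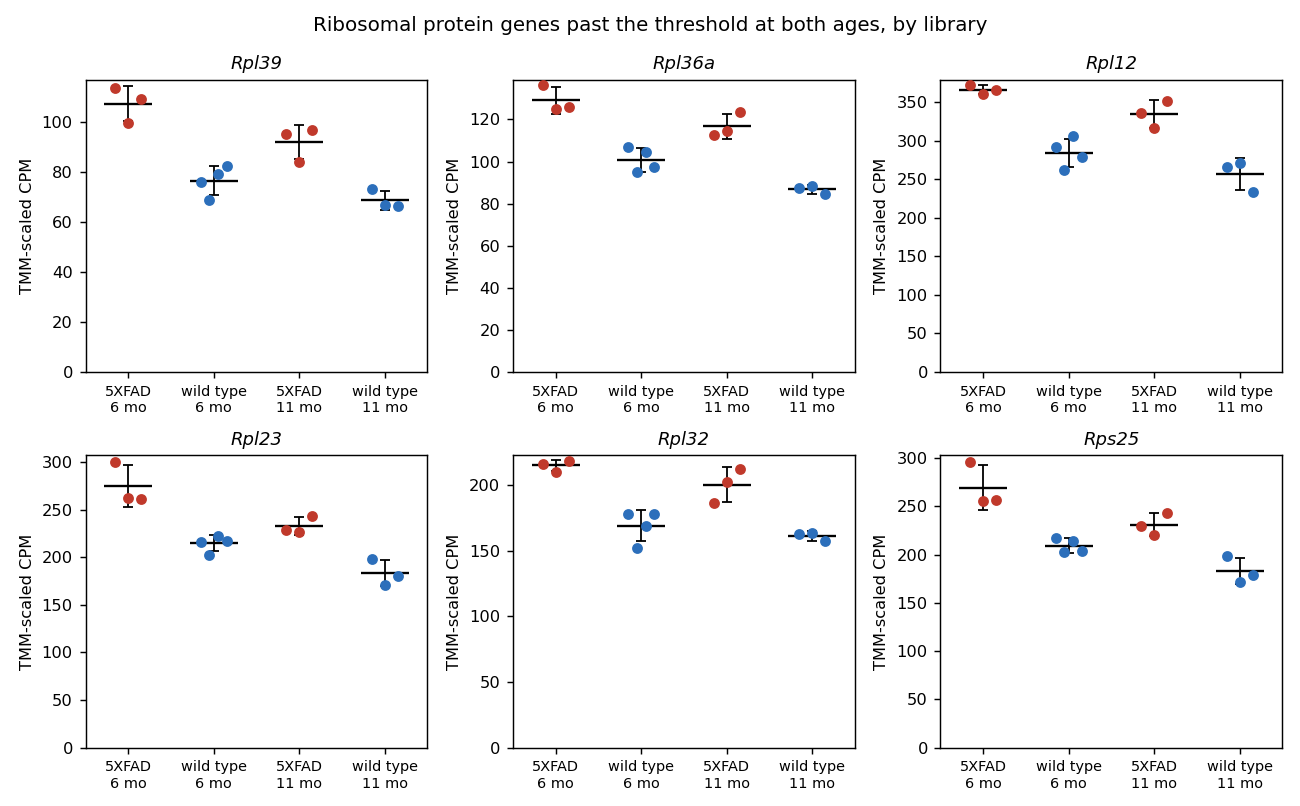
TMM-scaled CPM in each library, with group mean ± SD, of the 6 genes past the threshold at both ages. In each panel every 5XFAD library lies above every wild-type library of its age.

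None of the paralogs passed in a genotype comparison. Rps27l came nearest, with 11.6 ± 0.79 CPM in 5XFAD and 9.01 ± 0.463 CPM in wild type at 6 months, without overlap (0.36 ± 0.11, edgeR adjusted p = 0.185). Rpl36al had log2 fold changes of 0.15 ± 0.07 at 6 months and 0.19 ± 0.08 at 11 months, less than its near-copy Rpl36a in value, although the difference between these genes was not tested and the authors' quantifier divides reads that fit several genes. Rpl22l1 had 37.5, 31.0 and 35.3 CPM in 5XFAD and 38.0, 30.2 and 34.3 CPM in wild type at 11 months, with full overlap (0.02 ± 0.11). Rps4l varied widely within groups, from 13.7 to 29.3 CPM in wild type at 6 months. Rpl3l, Rpl6l, Rps3a2 and Rps12l1 averaged under 1 CPM in every group, and the standard errors of their log2 fold changes ran from 0.35 to 1.69.

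With age, most ribosomal protein genes had lower values at 11 than at 6 months, and few passed the test. The comparisons of age use the same libraries as those of genotype, so they are not independent of them. In 5XFAD, 2 of the 86 genes passed as lower at 11 than at 6 months and 0 as higher, where 2.39% of all genes passed as lower and 4.84% as higher, and the median log2 fold change was -0.14 (all genes 0.00). There 23 genes had an unadjusted p under 0.05, a share close to the 24.4% of all genes. In wild type 0 genes passed, where 1.29% of all genes passed as lower and 2.42% as higher. The median in wild type was -0.16, and 31 genes had an unadjusted p under 0.05 (23.8% of all genes). DESeq2 called 18 as lower. The share of all genes that DESeq2 called is not given here, so the 18 cannot be compared with all genes. DESeq2 also called more of these genes than edgeR in the other comparisons of genotype and of age. Between ages, 49 genes were lower without overlap in 5XFAD, against 17.3% of all genes, and 26 in wild type, against 7.96%. None was higher without overlap, which held for 18.4% of all genes in 5XFAD and 9.11% in wild type.

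Markers of other cell types also differed in value between the ages, some upward and some downward. The 6 endothelial markers summed to 117.5 to 142.7 CPM at 11 months and 70.7 to 79.3 CPM at 6 months in 5XFAD (5 of 6 passed as higher), and to 134.2 to 214.1 CPM at 11 months and 83.8 to 107.3 CPM at 6 months in wild type (4 of 6 passed). Of 12 microglial markers, 10 passed as higher with age in 5XFAD and 0 in wild type, where 7 had an unadjusted p under 0.05, and of 8 astrocyte markers 4 and 1 passed. Of 7 markers of meninges and fibroblasts, 3 passed in 5XFAD (median log2 fold change 1.19) and 0 in wild type (median 0.28, 2 at an unadjusted p under 0.05). The 5 red blood cell markers had medians of 0.78 in 5XFAD and 0.83 in wild type, and 0 passed (1 and 2 at an unadjusted p under 0.05). Medians in 5XFAD and wild type were -0.28 and -0.12 for oligodendrocytes, -0.30 and -0.12 for inhibitory neurons and 0.01 and -0.12 for excitatory neurons. For choroid plexus they were 0.12 and -2.31, with wild-type replicate 1 at 6 months the library that held choroid plexus RNA. None of the markers of oligodendrocytes, these neurons and choroid plexus passed. The part of all these cells in the age differences of ribosomal protein genes was not tested.

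The gene differences with age that passed were those of Rpl22l1 and Rps27a, both in 5XFAD. Rpl22l1 had 37.5, 31.0 and 35.3 CPM at 11 months, against 56.3, 44.4 and 49.4 CPM at 6 months (-0.53 ± 0.11, 0.691-fold, edgeR adjusted p = 0.0154). Rps27a, which is made as a fusion with ubiquitin, had 249.2, 262.7 and 273.9 CPM at 11 months, against 349.2, 324.2 and 318.0 CPM at 6 months (-0.34 ± 0.08, edgeR adjusted p = 0.0311). Neither gene overlapped between ages. Their counts were non-whole in 4 libraries for Rpl22l1 and 5 for Rps27a. In wild type the values ran the same way without passing, at -0.31 ± 0.10 for Rpl22l1 (adjusted p = 0.0985) and -0.26 ± 0.08 for Rps27a (adjusted p = 0.0699). The 5XFAD count was 0 without 5XFAD replicate 3 of 11 months or replicate 1 of 6 months, 1 without either other 5XFAD library of each age, and 3 and 4 without wild-type replicates 3 and 2 of 11 months. In wild type it was 6 without replicate 1 and 1 without replicate 3 of 11 months. The share of all genes that passed in each of these fits is not given here.

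Ribosomal protein mRNAs are short, and short transcripts as a class also moved between the groups. The 77 canonical genes ran from 346.6 to 1594.3 bases, while the median of all tested genes was 2453.7 bases. Over all other genes, a slope on length was fitted in each library to the log2 CPM deviation from the mean of all 13 libraries. Per doubling of length it was -0.088 to -0.052 in 5XFAD and -0.049 to 0.014 in wild type at 6 months. At 11 months it was 0.00 to 0.049 in 5XFAD and 0.016 to 0.132 in wild type, with overlap. Short transcripts were thus relatively more abundant in 5XFAD than in wild type at 6 months without overlap, and relatively less abundant at 11 than at 6 months. The share of counts from the mitochondrial genome was 9.94% to 9.99% in 5XFAD and 8.38% to 8.88% in wild type at 6 months, and 10.1% to 11.3% in 5XFAD and 7.89% to 11.43% in wild type at 11 months. What sets the length trend was not tested.

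Compared with other genes of the same length, the ribosomal protein genes stood higher in both genotype comparisons. Under 600 bases the median log2 fold change at 6 months was 0.28 for 27 canonical genes and 0.15 for 391 other genes. From 600 to 1000 bases it was 0.24 for 38 canonical genes and 0.07 for 1313 others, and from 1000 to 2000 bases 0.24 for 12 and 0.01 for 4904. The canonical medians thus varied little with length, while those of other genes reached -0.04 over 4000 bases. At 11 months the medians in the same 3 bins were 0.30, 0.28 and 0.26 for canonical genes and 0.10, 0.05 and 0.01 for others. Among genes under 1000 bases with a mean of at least 50 CPM, 65 canonical genes had medians of 0.26 and 0.29 at the 2 ages and 234 other genes had 0.09 and 0.10. Across the 77 canonical genes, Spearman's rho of fold change with length was -0.34 at 6 months and -0.04 at 11 months, as a description over genes that share libraries.

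For age the comparison ran otherwise. Under 600 bases the median log2 fold change from age in 5XFAD was -0.14 for canonical genes and -0.29 for others, and in wild type -0.14 for canonical genes and -0.23 for others. Among genes under 1000 bases with at least 50 CPM, the medians in 5XFAD were -0.14 for canonical genes and -0.27 for others, and in wild type -0.16 and -0.29. At that length and level, the ribosomal protein medians lay nearer to 0 than those of other genes.

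**Figure D5:**
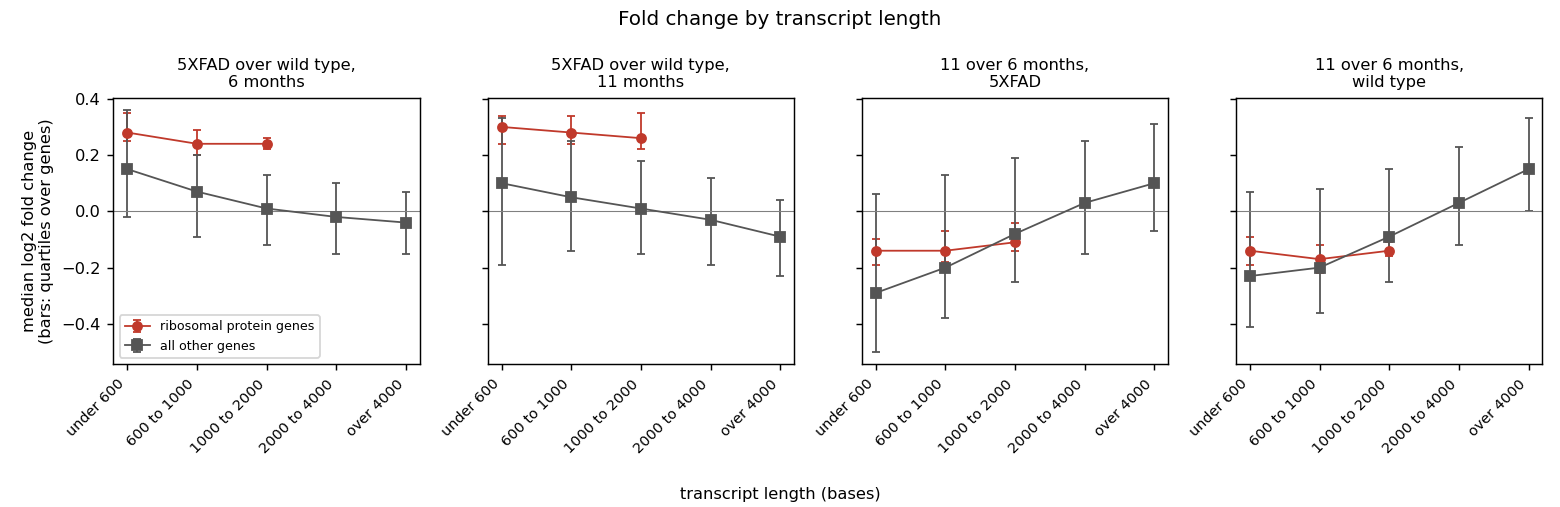
Median log2 fold change (quartiles as bars) by transcript length in bases for canonical ribosomal protein genes and all other genes, in each of the 4 comparisons. The ribosomal protein genes lie above other genes of their length for genotype, and above them for age under 1000 bases but not from 1000 to 2000.

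When a smooth function of length and GC content, fitted to each library without the ribosomal protein genes, was entered as an offset, the genotype medians were 0.15 at both ages and the age medians 0.00. Over all genes the medians were then -0.01 at 6 months and -0.06 at 11 months. Of the 86 genes, 82 stayed positive at 6 months and 79 at 11 months, and 37 and 29 had an unadjusted p under 0.05, against 8.43% and 17.5% of all genes in that fit. At 6 months 2 genes passed (1.25% of all genes passed as higher), Rpl39 (0.35 ± 0.07, edgeR adjusted p = 0.0195) and Rpl12 (0.33 ± 0.07, edgeR adjusted p = 0.0299). At 11 months 2 passed, a smaller share than the 3.48% of all genes that passed as higher, among them Rpl39 (0.28 ± 0.07, edgeR adjusted p = 0.0461), although none did when the smooth was fitted on all genes. Groups still did not overlap for 59 genes at 6 months (6.31% of all genes) and for 29 at 11 months (8.73%). The median deviation per library was then 0.072 to 0.099 in 5XFAD and -0.111 to -0.016 in wild type at 6 months, without overlap, and -0.009 to 0.127 in 5XFAD and -0.167 to -0.006 in wild type at 11 months, with overlap by a single pair of libraries. For age, neither Rpl22l1 nor Rps27a passed with the offset, and Rpl7l1 did in 5XFAD, as lower at 11 months (-0.34 ± 0.09, edgeR adjusted p = 0.0367; 2.92% of all genes passed as lower).

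Mitochondrial ribosomal protein genes, which build the separate ribosome of mitochondria, had genotype medians near that of all genes. Of 78 tested, 0 passed edgeR's test at either age. Their median log2 fold changes were 0.05 at 6 months and 0.03 at 11 months. An unadjusted p under 0.05 was held by 2 and 1 of them, against 9.09% and 15.8% of all genes. With age, 19 of 78 passed as lower in 5XFAD (2.39% of all genes) and 12 in wild type (1.29%), at medians of -0.27 and -0.25. Short transcripts in general did likewise. Of 234 genes outside the cytosolic set under 1000 bases with a mean of at least 50 CPM, 60 and 37 passed as lower, at medians of -0.27 and -0.29.

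Other genes of the translation machinery were described from 2 lists, and their difference from the ribosomal protein genes was not tested. Of 34 initiation factors, 0 passed edgeR's test at either age, with medians of 0.06 and 0.04. At 6 and 11 months 3 and 6 genes had an unadjusted p under 0.05, against 9.09% and 15.8% of all genes. The smallest p belonged to Eif3h, a subunit of the factor that recruits the 40S subunit, at 0.19 ± 0.07 (adjusted p = 0.357) and 0.22 ± 0.07 (adjusted p = 0.119). Of 17 elongation factors and other genes with TOP mRNAs, 0 passed edgeR's test at 6 months (7 at an unadjusted p under 0.05) and 1 at 11 months (9 at an unadjusted p under 0.05). Their medians were 0.16 and 0.20, and 14 and 15 of the 17 were positive. In 8 and 9 of them all 5XFAD libraries lay above all wild-type libraries, which held for 6.97% and 10.4% of all genes. The gene past the threshold was Pabpc1, the poly(A)-binding protein, at 160.1 ± 9.31 CPM in 5XFAD and 127.8 ± 11.6 CPM in wild type (0.32 ± 0.08, edgeR adjusted p = 0.038). Fau encodes the ribosomal protein Rps30 as a fusion and falls outside the naming rule. It had log2 fold changes of 0.28 ± 0.09 at 6 months and 0.35 ± 0.09 at 11 months (adjusted p = 0.212 and 0.0541).

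Genes that assemble ribosomes had genotype medians close to 0. Of 51 ribosome biogenesis genes, 0 passed edgeR's test at either age, and the medians were 0.00 and 0.02. There 1 and 5 genes had an unadjusted p under 0.05, against 9.09% and 15.8% of all genes. The smallest p belonged to Rrp12 at 6 months (-0.26 ± 0.10, adjusted p = 0.42) and Heatr1 at 11 months (-0.37 ± 0.12, adjusted p = 0.126). Of 20 genes of mTOR, S6 kinase and Myc control, 0 passed edgeR's test at 6 months (4 at an unadjusted p under 0.05). At 11 months 1 rose, Rps6ka1 (0.49 ± 0.12, edgeR adjusted p = 0.0292), and 1 fell, Rps6ka3, with 39.5 ± 0.179 CPM in 5XFAD and 55.0 ± 6.95 CPM in wild type (-0.48 ± 0.09, edgeR adjusted p = 0.00659). Both encode kinases of the RSK family, which can phosphorylate Rps6. The list medians were -0.06 at 6 months and -0.12 at 11 months, and 7 and 6 of the 20 genes were positive. At 11 months 8 of the 20 had an unadjusted p under 0.05. Of all genes, 9.09% at 6 months and 15.8% at 11 months had such a p.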

How the data were processed

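Per the submitters' processing notes, STAR 2.7.1, RSEM and the build GRCm38 were used. Which annotation, strand setting and RSEM version applied is not stated there. Each library has 1 deposited file with expected counts, which the authors' quantifier estimates by dividing reads that fit several genes, with TPM scaled by the authors for length, and with the length itself. All 55536 gene identifiers matched GENCODE M21, which gave the symbols.

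Expected counts were rounded to whole numbers, filtered with filterByExpr (minimum count 10, minimum total 15) to 17483 genes and scaled by TMM. One model of 4 group means over 13 libraries was tested with edgeR 4.0.16 (robust quasi-likelihood, R 4.3.3), with Benjamini-Hochberg adjustment over all genes. Each standard error is the unshrunk log2 fold change over the root of its F statistic. The steps were tested on simulated data. No p is given for the genes as a set, and lists are described by counts and medians.

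The genes, lists and rules were chosen with earlier results of these data known. Genes given with values were those past the threshold (at most the 10 with the smallest p per comparison), the extremes of fold change and level, the stalk genes, Rpsa, Rps6 and the paralogs with their namesakes; other names appear without a test. A few genes are counted but not reported here by name.

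Alternatives were RLE scaling, no expression filter, DESeq2 1.42.0, limma 3.58.1 on log2(TPM + 1) of the deposited TPM, length and GC offsets (mgcv 1.9.3), only the groups compared, sex as a covariate, pseudogene counts added (299 pseudogenes, 0.246% of the counts of these genes) and each library left out. Fitting the offsets on all genes, and a term for the series of title numbers at 11 months, were chosen after the data were seen. The human transgenes were not analysed here.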

Additional observations from a re-analysis of the deposited data

Results flagged for a closer look

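Among 46 named genes and 3 library measures, each examined in the 4 wild-type libraries at 6 months, 3 held a library far from the others by Dixon's criterion, which flags about 1 in 20 groups by chance. Rps29 had 196.6 CPM in wild-type replicate 2, below 242.2 to 249.2 CPM in the other 3 libraries. Rpl21 had 420.7 CPM in the same library, below 448.3 to 453.0 CPM in the others. Rps12l1, a paralog near the detection limit, had 0.772 CPM there, against at most 0.0817 CPM in the others. Without this library the median genotype difference at 6 months was 0.21 in place of 0.253 on the log2 scale.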

How the results depend on the processing

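No gene past the threshold changed direction under any alternative run, while the median age differences were about 0 with the length and GC offsets. No paired analysis was possible because the titles give every library its own number and the replicate numbers follow accession order. With the 2 series of title numbers at 11 months as a term, chosen after the data were seen, 22 genes passed at that age (21 of the 27) and the median was 0.279; at 6 months the series split by genotype. In the genotype comparisons, leaving out a library moved the medians less than the counts past the threshold. The counts below stand without the share of all genes that passed in the same fit. That share was given above only for the main fit and the offsets fitted without these genes. At 6 months (10 genes, median 0.253), the count was 33 in DESeq2, 0 on log2(TPM + 1), where the median was 0.108 and that of all genes -0.107 (0.215 relative to it), 2 with offsets (median 0.15) and 2 with offsets fitted on all genes (median 0.146), 5 with only the 2 groups compared and 2 with sex as a covariate. At 11 months (27 genes, median 0.269), it was 51 in DESeq2, 2 on log2(TPM + 1) (median 0.155, all genes -0.118, 0.274 relative to it), 2 with offsets (median 0.152), 0 with offsets fitted on all genes (median 0.146; 28 genes at an unadjusted p under 0.05) and 1 with only the 2 groups compared. With age in 5XFAD (2 genes, median -0.139), it was 7 in DESeq2, 0 on log2(TPM + 1), 1 with either offset (medians 0.002 and 0.00), 10 with only the 2 groups compared and 1 with sex. With age in wild type (0 genes, median -0.157), it was 18 in DESeq2, and the median was 0.002 with either offset. The cause of these changes was not tested.

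With each library left out, counts ran from 1 to 13 at 6 months, 1 to 31 at 11 months, 0 to 4 with age in 5XFAD, 0 to 6 with age in wild type and 0 to 0 for the interaction. The medians ran from 0.21 to 0.283, 0.252 to 0.298, -0.166 to -0.117, -0.204 to -0.135 and -0.012 to 0.063. RLE scaling, no filter and added pseudogene counts kept the counts at 8 to 10 at 6 months and 26 to 29 at 11 months. At under 1 CPM, Rpl3l, Rpl6l, Rps3a2 and Rps12l1 had standard errors of 0.35 to 1.69, above the medians given here.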
